A study of Mus musculus with 47 samples.

Results

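The 9 genes described here encode components and receptors of the complement system: C1qa, C1qb, C1qc, C4b, C3, C3ar1, C5ar1, Itgam and Itgb2. They were matched by symbol to Ensembl identifiers, and all 9 were found among the 54281 genes of the TPM table (transcript abundance scaled to the library total and to transcript length) and the 54532 genes of the count table. The genes were chosen partly on their levels in the 2 diets in these same libraries, so the difference between the diets is given as a description without a test. RNA was sequenced from the microdissected cortex of 47 male C57BL/6J mice, 1 library per mouse, harvested at about 3 months of age from a 12 h light and 12 h dark cycle. Of these wild-type mice, 23 had eaten control chow and 24 had eaten chow with 1200 ppm PLX5622 for 10 days. PLX5622 inhibits CSF1R, on whose signal microglial survival depends, and it reaches macrophages throughout the body. Mice of each diet were harvested at Zeitgeber times (ZT) 2, 6, 10, 14, 18 and 22, where ZT0 is lights-on, with 4 mice per group and 3 in the control group at ZT14. Mice were housed 4 to a cage, and which mice shared a cage is not given in the sources used here.

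Complement is a cascade of plasma and tissue proteins that tags cells, debris and synapses for removal. C1q, built from the C1qa, C1qb and C1qc chains, starts the classical pathway, in which C4 and then C3 are cleaved and deposited on the target. Cells that carry CR3, the integrin formed by Itgam (CD11b) and Itgb2 (CD18), can engulf targets bearing C3 fragments, and C3ar1 and C5ar1 respond to the soluble fragments C3a and C5a. In the brain, microglia are the main source of C1q and carry CR3, whereas C4b and C3 are known from astrocytes and other cells too.

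The 3 C1q genes lie side by side on the minus strand of chromosome 4 within 18675 bases (GRCm38, GENCODE M21), with C1qa at 136895917-136898803, C1qc at 136889804-136893065 and C1qb at 136880129-136886187. C3 (chromosome 17, 57203970-57228136) and C4b (chromosome 17, 34728380-34743882) are on the minus strand of chromosome 17. C4b has a near-identical neighbour, C4a, and reads may be split between them. C3ar1 is at 122847138-122856161 on chromosome 6 and C5ar1 at 16246743-16259540 on chromosome 7, both on the minus strand. On the plus strand, Itgam spans 128062640-128118491 on chromosome 7, where it overlaps the gene model Gm49368, so that its reads may be shared, and Itgb2 spans 77530252-77565708 on chromosome 10.

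Promoter windows of 250 bases before the start site were taken from RefSeq (GRCm38.p6) for the 6 members it held, which were C1qb, C1qc, C3, C3ar1, C5ar1 and Itgam. C1qa, C4b and Itgb2 were not matched. The windows were searched on both strands for GAGGAA, whose reverse complement is TTCCTC, the core of sites bound by PU.1, a factor of myeloid cells. This hexamer was found in 3 of the 6, in C1qb, C1qc and Itgam, and in 23.3% of 32851 promoters of the same length, and a match says nothing of binding. TGANTCA, an AP-1-like motif that does not overlap the former, was found in C3ar1 alone among the 6 and in 6.75% of promoters, and TTCNNNGAA, a STAT-like motif, in none of the 6 and in 7.02%. The windows of the 3 genes with GAGGAA are shown 5′ to 3′ along the gene with the match in capitals, beside that of C3, which has none. In C1qb the match begins 30 bases before the start site, in C1qc 193 bases before it, and in Itgam 84 and 15 bases before it. The C1qc window is cut to the 99 bases outside annotated exons.
C1qb, chr4:136886201-136886450, minus strand: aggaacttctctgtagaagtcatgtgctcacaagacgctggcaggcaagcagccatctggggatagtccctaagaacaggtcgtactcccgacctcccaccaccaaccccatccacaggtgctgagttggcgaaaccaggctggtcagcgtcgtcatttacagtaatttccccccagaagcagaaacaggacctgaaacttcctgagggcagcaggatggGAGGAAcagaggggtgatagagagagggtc
C1qc, chr4:136893066-136893164, minus strand: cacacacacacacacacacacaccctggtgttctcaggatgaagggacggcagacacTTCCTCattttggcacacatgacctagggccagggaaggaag
Itgam, chr7:128062390-128062639, plus strand: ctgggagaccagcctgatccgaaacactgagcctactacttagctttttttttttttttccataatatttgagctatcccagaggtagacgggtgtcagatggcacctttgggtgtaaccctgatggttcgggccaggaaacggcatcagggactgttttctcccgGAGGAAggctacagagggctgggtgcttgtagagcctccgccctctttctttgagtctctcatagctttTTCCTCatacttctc
C3, chr17:57228137-57228386, minus strand: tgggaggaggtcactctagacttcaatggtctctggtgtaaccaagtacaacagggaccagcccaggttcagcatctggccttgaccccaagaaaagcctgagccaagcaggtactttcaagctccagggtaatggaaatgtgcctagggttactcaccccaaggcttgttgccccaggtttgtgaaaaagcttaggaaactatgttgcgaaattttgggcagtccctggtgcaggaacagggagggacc

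The count table held 16597987 to 27626161 reads in a library, and the median depth was 18314954 for control and 21476967.5 for PLX5622. NovaSeq and HiSeq instruments were both used, and which library ran on which is not given in the sources used here, so an instrument batch was not examined. The summed level of 14 microglia markers ranged from 364 to 561 TPM in control mice and from 25.04 to 92.9 TPM in PLX5622 mice, and all 14 fell with PLX5622 (limma, Benjamini-Hochberg over all genes tested). Ctss, a lysosomal protease gene among the most abundant of them, was at 94.3 ± 9.33 TPM on the control diet (SD, n = 23) and at 8.62 ± 4.49 TPM on PLX5622 (SD, n = 24). Border macrophage markers, such as Pf4 and Cbr2, moved with the diet as well, from a sum of 8.25 to 21.3 TPM to a sum of 0.385 to 2.94 TPM. In PLX5622 mice the border macrophage markers Ms4a7 and Cd209f had a median of 0. Of the 8 border macrophage markers 2 passed the filter on low values, and both fell. Neutrophil, monocyte and lymphocyte marker sums overlapped between the diets, and Ly6g was at a median of 0 in both. The 2 of 7 neutrophil genes that were tested did not change, and none of the 5 monocyte and 6 lymphocyte genes was abundant enough to be tested. No red blood cell (5), neuron (8) or meningeal fibroblast (8) marker was called, and 1 of 8 astrocyte markers (Gfap) and 1 of 8 oligodendrocyte markers (Cldn11) rose. In bulk tissue, fewer cells of a type and less RNA per cell cannot be told apart.

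The C1q genes were the most abundant members in control cortex, and their transcripts were 10.5 to 12.4 times lower in PLX5622 mice. C1qa, which encodes the A chain, had a lowest, median and highest level of 81.1, 105 and 133 TPM in control mice and of 0.961, 7.61 and 19.0 TPM in PLX5622 mice. For C1qb, the B chain, these were 78.3, 94.6 and 122 TPM against 0.944, 8.37 and 15.6 TPM. For C1qc, the C chain, they were 57.1, 67.8 and 93.7 TPM against 0.294, 6.22 and 13.1 TPM. Every PLX5622 library lay below every control library for each of the 3 genes. The mean in PLX5622 mice was 8.05% ± 1.06 (SE) of the control mean for C1qa, 8.52% ± 0.958 for C1qb and 9.56% ± 1.21 for C1qc. The count table gave nearly the same, with 8.32%, 8.64% and 9.61% in CPM (counts scaled to the library total). On the log2(TPM + 1) scale the differences were -3.74 ± 0.20 (SE), -3.63 ± 0.19 and -3.46 ± 0.20 with time of day as a covariate.

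The subunits of CR3 were also lower with PLX5622. Itgam, the alpha chain CD11b, ranged from 5.75 to 10.5 TPM around a median of 7.96 in control mice and from 0.0255 to 1.16 TPM around a median of 0.540 in PLX5622 mice. Itgb2, the beta chain CD18 that other leukocyte integrins share, ranged from 2.14 to 4.51 TPM (median 3.29) and from 0.157 to 1.59 TPM (median 0.420). The diets did not overlap for either gene. PLX5622 mice kept 6.86% ± 0.772 (SE) of the control mean of Itgam and 16.0% ± 2.17 of that of Itgb2. The ratio of Itgam to Itgb2 in TPM was 2.62 ± 0.446 (SD, n = 23) on the control diet and 1.16 ± 0.436 (SD, n = 24) on PLX5622. The ratio of their counts was likewise higher on the control diet, at 1.20 ± 0.251 against 0.617 ± 0.387. Both subunits passed the filter of a mean of at least 1 TPM through their level in control mice. The log2(TPM + 1) differences were -2.56 ± 0.07 for Itgam and -1.47 ± 0.07 for Itgb2, and because both means were under 1 TPM in PLX5622 mice they understate the change: on the counts edgeR gave log2 differences of -3.78 and -2.78.

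The anaphylatoxin receptors had few reads, and in PLX5622 mice they were close to the limit of detection. C3ar1 averaged 0.628 ± 0.149 TPM (SD, n = 23), or 39.5 reads, in control mice and 0.106 ± 0.0734 TPM (SD, n = 24), or 7.58 reads, in PLX5622 mice. C5ar1 averaged 0.538 ± 0.283 TPM, or 15.4 reads, and 0.0790 ± 0.0768 TPM, or 2.04 reads. For C3ar1, 23 of the 24 PLX5622 libraries were below every control library, and for C5ar1 17 of 24 in TPM and 21 of 24 in CPM. In 6 PLX5622 libraries C5ar1 had no read. These receptors and C3 did not pass the filter on low values, so they were not among the genes tested on TPM. The edgeR log2 differences on counts were -2.53 for C3ar1 and -2.97 for C5ar1.

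C4b was the member with a higher mean in PLX5622 mice at every time. Its lowest, median and highest levels were 4.60, 7.22 and 10.6 TPM in control mice and 7.72, 10.5 and 15.6 TPM in PLX5622 mice. Of the PLX5622 libraries 12 of 24 were above every control library, and the rest lay within the control range. The mean was 153% ± 8.94 (SE) of control in TPM and 146% ± 8.27 in CPM, and the log2(TPM + 1) difference was 0.56 ± 0.07. The paralog C4a, at 0.731 TPM in control and 0.788 TPM in PLX5622 mice, was too low to be tested. Gfap, a marker of reactive astrocytes, rose as well, from 149 ± 36.8 TPM (SD, n = 23) to 218 ± 44.97 TPM (SD, n = 24). Of the astrocyte reactivity list, Gfap and Cd44 rose and Srgn and Psmb8 fell among the 12 of 15 genes tested, and the sum of the list ranged from 226 to 415 TPM in control mice and from 269 to 448 TPM in PLX5622 mice. Choroid plexus markers ran from 70.5 to 1197 TPM in sum and from 150 to 1280 TPM, with 3 of 8 higher. The part of these cells in the level of C4b was not tested.

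C3, the central component on which the pathways converge, was scarcely detected and did not separate by diet. It ranged from 0.0674 to 1.11 TPM (median 0.198) in control mice and from 0.0802 to 0.818 TPM (median 0.221) in PLX5622 mice. The mean in PLX5622 mice was 80.6% ± 19.0 (SE) of control in TPM and 116% ± 16.4 in CPM, so that the direction differed between the tables. The libraries held 13.04 ± 7.42 reads of C3 (SD, n = 23) and 16.8 ± 6.53 reads (SD, n = 24). The edgeR log2 difference on counts was 0.22.

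Across the set, 5 of the 9 members did not overlap between the diets and were lower with PLX5622, where 0.583% of the 14580 genes tested did so. Among all genes tested, 3.45% were called in the comparison of the diets, 2.58% as lower and 0.871% as higher. As this comparison bore on the choice of the genes, their count is not read against these shares.

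**Figure D1:**
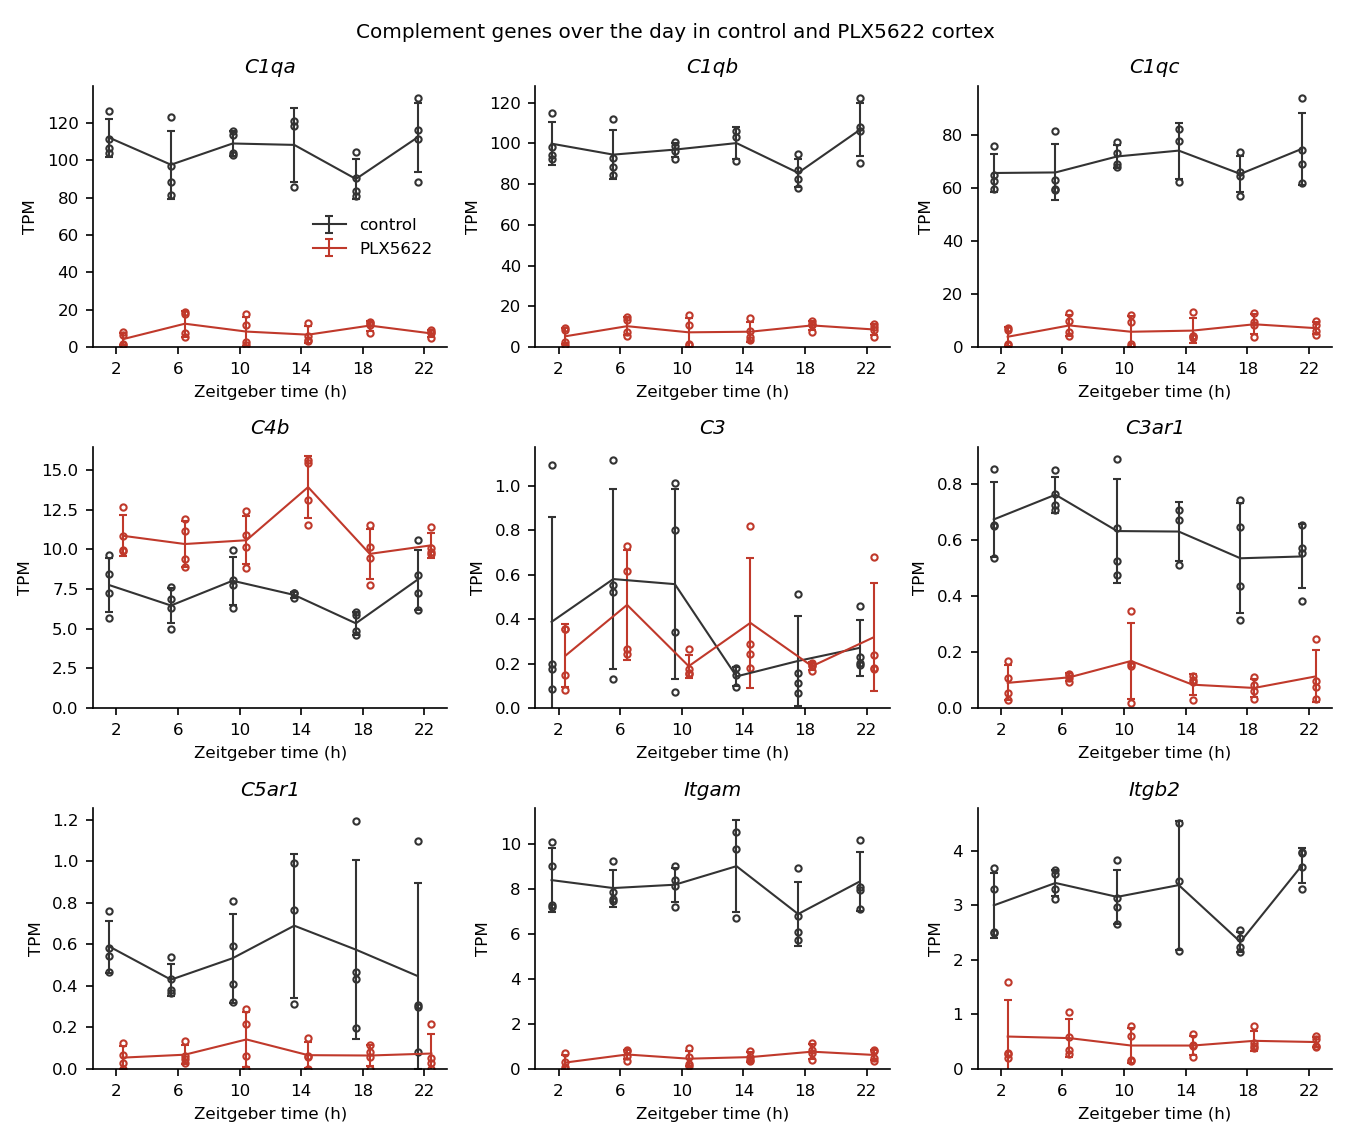
TPM of the 9 genes (y axes, from 0) against Zeitgeber time in h (x axes), with open circles for single mice, lines for group means and bars for ± SD, cut at 0. Control mice are dark and PLX5622 mice red, and the diets are apart at all 6 times for the C1q genes, Itgam and Itgb2, whereas C4b is higher on PLX5622 and C3 is mixed.

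The difference between the diets was then followed over the day. C1qa in PLX5622 mice ranged between 3.82% of the control mean at ZT2 and 12.8% at ZT6, C1qb between 5.32% and 12.4%, and C1qc between 5.94% and 13.2%. At ZT2 the 4 PLX5622 mice had 0.961, 1.77, 6.57 and 7.81 TPM of C1qa, and the 4 control mice 104, 107, 111 and 126 TPM. At ZT6 the PLX5622 mice had 5.58, 7.63, 17.8 and 19.0 TPM, so that ZT2 and ZT6 overlapped. Itgam was at 3.47% to 11.2% of control and Itgb2 at 12.8% to 22.2%. Single libraries were left out of these means as a check added after the values were seen. At ZT2, leaving out replicate 4 of the PLX5622 mice took Itgam from 3.47% to 1.74% and Itgb2 from 19.9% to 8.77%. That library held 23 reads of Itgam against 1 to 4 in the others. Of Itgb2 it held 16 against 10 to 13, so its high TPM of Itgb2 was not seen in the counts. At ZT10, leaving out replicate 4 of the PLX5622 mice took C1qa from 7.61% to 4.68%, C1qb from 7.47% to 4.59% and C1qc from 8.04% to 5.05%, and at ZT14 leaving out replicate 1 took C1qc from 8.39% to 5.30%. All PLX5622 mice were below all control mice at 6 of 6 times for the C1q genes, Itgam, Itgb2 and C3ar1 and at 5 of 6 times for C5ar1. C4b was at 127% to 195% of control and lay above all control mice at 4 of 6 times. Groups of 4 or 3 mice separate more easily than all libraries do. The share of all genes that separated at a single time was not counted, so these counts of times are descriptions only. The largest difference of C4b was at ZT14, with 11.5, 13.1, 15.4 and 15.6 TPM in PLX5622 mice and 6.90, 7.23 and 7.23 TPM in the 3 control mice. In TPM, C3 was lower in mean at 4 times and higher at 2, between 33.8% and 269% of control, and single libraries decided several of these values. The 269% at ZT14 became 167% without replicate 3 of the PLX5622 mice. The side of C3 turned at ZT2 (60.8% to 154% without control replicate 1), at ZT18 (88.8% to 169% without control replicate 2) and at ZT22 (117% to 73.0% without PLX5622 replicate 4). Mean reads, not scaled to depth, put C3 on the opposite side from TPM at ZT2, ZT6, ZT18 and ZT22. At ZT10 and ZT14 the sides were the same. At ZT18 the PLX5622 mice held 16 to 21 reads of C3 and the control mice 6 to 11.

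**Figure D2:**
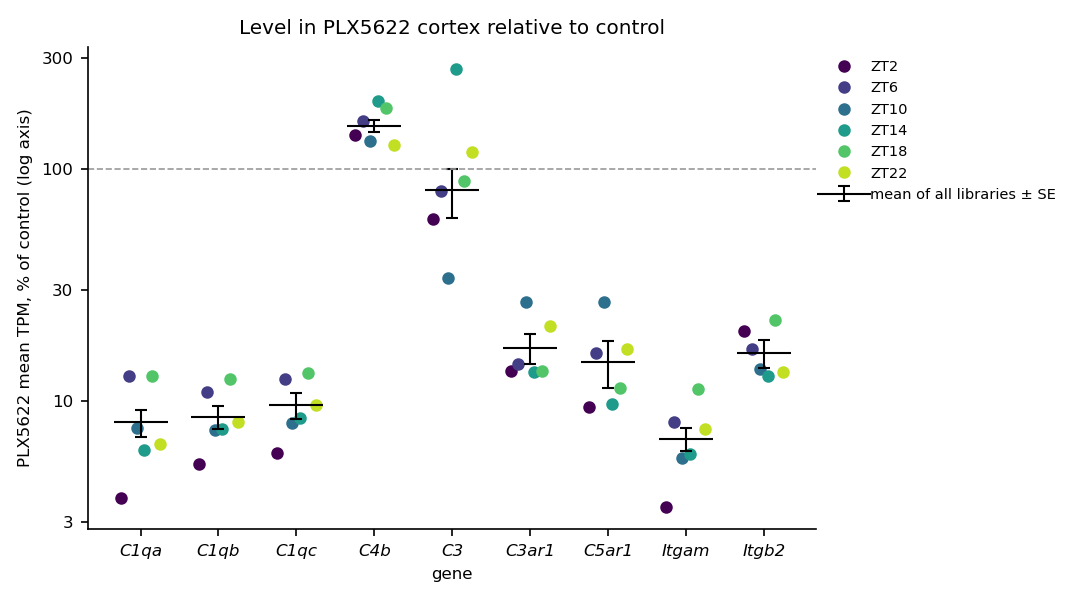
Mean TPM in PLX5622 mice as a percent of the control mean (y axis, log scale, dashed line at 100%) for each gene (x axis), with a coloured point per Zeitgeber time and a black bar for all libraries ± SE. The C1q genes and Itgam lie between 3.47% (Itgam at ZT2, 1.74% without replicate 4) and 13.2% at every time, C4b lies above 100% and C3 lies on both sides.

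Whether any member cycled was tested with JTK_CYCLE within each diet, a test the choice of genes had not used. No member was called rhythmic in either diet, where 11 of 14580 genes (0.0754%) were called in control mice and 89 (0.61%) in PLX5622 mice. None of the 6 members tested reached an unadjusted p under 0.05 with JTK_CYCLE. The smallest p was that of C4b in both diets, at 0.782 in control mice and 0.419 in PLX5622 mice (permutation null of the ranks, exact). Without the filter on low values C3, C3ar1 and C5ar1 were not called either, with an adjusted p of 1.0 in both diets. Tests of the cosine and sine of ZT called no member with limma, edgeR or DESeq2. With edgeR and DESeq2 on the counts Itgb2 in control mice had an unadjusted p under 0.05 and an adjusted p of 0.28 and 0.24.

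The time of the lowest mean was shared by several members. In control mice, 7 of the 9 members, all but C3 and C5ar1, had their lowest mean at ZT18. Itgb2 ran from 2.14, 2.23, 2.39 and 2.55 TPM at ZT18 to 3.29, 3.70, 3.96 and 3.97 TPM at ZT22, and these times did not overlap. C4b ran from 4.60, 4.83, 5.83 and 6.07 TPM at ZT18 to 6.15, 7.23, 8.39 and 10.6 TPM at ZT22, likewise without overlap. For C1qa the means were 90.0 ± 10.5 TPM at ZT18 and 112 ± 18.5 TPM at ZT22 (SD, n = 4), and they overlapped. In PLX5622 mice the lowest means of C1qa, C1qb, C1qc and Itgam were at ZT2 and the highest at ZT6 for C1qa and ZT18 for the other 3, always with overlap, while C4b went from 9.71 ± 1.58 TPM at ZT18 to 13.9 ± 1.96 TPM at ZT14 (SD, n = 4) without overlap. When the 6 times were ranked by mean level, times next to each other in rank overlapped for every member in both diets. These extremes were picked after the values were seen, and none of the tests of time called them.

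A change of rhythm with the diet was tested as the interaction of treatment with the cosine and sine of ZT. No gene was called by limma (0% of 14580, with 669 at an unadjusted p under 0.05), by edgeR (0, with 1012) or by DESeq2 (0, with 1266). None of the 6 members tested had an unadjusted interaction p under 0.05, and the smallest was that of C4b, at 0.229 with an adjusted p of 1.0 (limma). A difference in rhythm between the diets was therefore not detected for any member.

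Relative to the mean, the C1q genes varied more among PLX5622 mice than among control mice. The coefficient of variation of TPM was 63.0% for C1qa, 53.9% for C1qb and 60.5% for C1qc in PLX5622 mice, against 14.7%, 11.1% and 13.2% in control mice. It was also higher in PLX5622 mice for Itgam, Itgb2, C3ar1 and C5ar1. For C4b (17.5% against 22.1%) and C3 (68.2% against 91.6%) it was lower in PLX5622 mice. To describe the spread between mice, each gene was fitted on the level of 14 microglia markers (mean log2(TPM + 1)) within one diet, with ZT as a factor. The marker level ran from 1.05 to 2.55 in PLX5622 mice and from 4.28 to 4.79 in control mice.

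In PLX5622 mice the 3 C1q genes followed the marker level upwards, in a fit that called 32 of 14580 genes (0.219%) as positive. The slopes, in log2(TPM + 1) per unit of the marker level, were 1.94 ± 0.12 (SE) for C1qa, 1.96 ± 0.14 for C1qb and 2.09 ± 0.15 for C1qc, with adjusted p of 2.89e-09, 1.70e-08 and 2.18e-08 (limma). Itgam and Itgb2 averaged only 0.555 and 0.506 TPM (12.2 and 20.8 reads) in these mice and entered the fit through their level in control mice, so their calls are given apart. Their slopes were 0.53 ± 0.07 for Itgam (adjusted p = 0.00019, limma) and 0.53 ± 0.10 for Itgb2 (adjusted p = 0.0149), and without the filter the adjusted p were 0.00017 and 0.0433. These slopes of the low genes are compressed by the scale. C4b had a slope of -0.08 ± 0.09 (adjusted p = 1.0). The C1q slopes were called in all 11 other ways of fitting them and with any library left out. Itgam was not called on the counts (adjusted p = 0.23 with edgeR and with DESeq2), and Itgb2 was not called with a trended prior (0.0801), without the pair of libraries farthest from the median marker level (0.0964) or without replicate 4 at ZT10 (0.0508). The markers and the members were measured in the same libraries.

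In control mice the marker level varied little, and the same fit gave positive slopes for C1qa (1.34 ± 0.24, adjusted p = 0.0172), C1qb (0.91 ± 0.20, 0.0276), C1qc (1.24 ± 0.22, 0.0172) and Itgam (1.40 ± 0.24, 0.0135). These 4 calls stood among 375 genes with a positive call, 2.57% of those tested, and the median slope over all genes was 0.38. After median-of-ratios scaling this median was 0.00171, and no gene and no member was called, with a smallest adjusted p of 0.0567 among the members. The slopes themselves moved little under that scaling, to 1.30 for C1qa, 0.86 for C1qb, 1.29 for C1qc and 1.38 for Itgam. No member was called with 7 of the 14 markers or with edgeR either. Leaving out replicate 2 at ZT14 or replicate 2 at ZT18 also ended all 4 calls. Itgb2 (0.97 ± 0.30, adjusted p = 0.0750) and C4b (-0.72 ± 0.41, adjusted p = 0.28) were not called. Itgb2 was called with the replicate block (adjusted p = 0.0455) and without a ZT term (adjusted p = 0.0228).

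**Figure D3:**
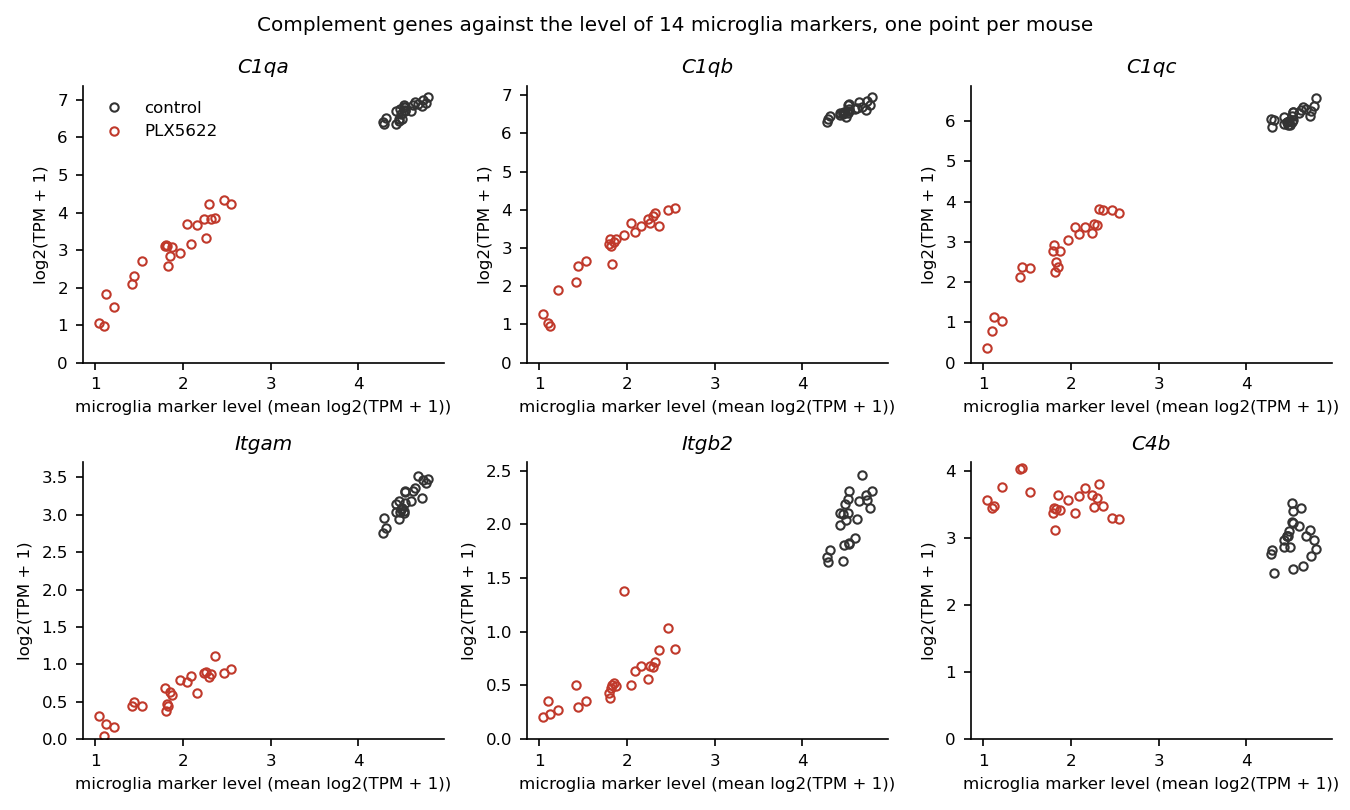
log2(TPM + 1) of 6 genes (y axes, from 0) against the mean log2(TPM + 1) of 14 microglia markers (x axes), with 1 circle per mouse, control dark and PLX5622 red. In PLX5622 mice the C1q genes, Itgam and Itgb2 climb with the marker level between 1.05 and 2.55, while C4b does not.

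The C1q chains kept similar proportions to each other on average. The ratio of C1qa to C1qb was 1.08 ± 0.0738 (SD, n = 23) on the control diet and 1.04 ± 0.397 (SD, n = 24) on PLX5622, and that of C1qa to C1qc was 1.51 ± 0.133 and 1.42 ± 0.588. The ratio of C1qb to C1qc was 1.41 ± 0.0985 and 1.47 ± 0.819. The means differed by less than the spread, which was wider in PLX5622 mice, where the levels were low. Relative to the 14 microglia markers the sum of the C1q genes was 0.604 ± 0.0385 (SD, n = 23) of the marker sum on the control diet and 0.365 ± 0.131 (SD, n = 24) on PLX5622. Single markers kept between 6.04% (P2ry13) and 66.1% (Sall1) of their control mean, with a median of 8.86%. Of the 14 markers 3 kept less than C1qa (8.05%), and the marker median lay between C1qb (8.52%) and C1qc (9.56%).

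Which genes varied like each member was described by Pearson's r of log2(TPM + 1) over the 47 libraries, after the mean of each diet and time was removed. The points share their libraries and the PLX5622 mice spread most, so these are descriptions. C1qa was closest to C1qc (r = 0.968), C1qb (0.961) and Cx3cr1, the fractalkine receptor of microglia (0.941). C1qb was closest to C1qa, C1qc (0.942) and the lysosomal protease gene Ctss (0.935), and C1qc to C1qa, Cx3cr1 (0.951) and C1qb. Itgam was closest to the selectin ligand gene Selplg (0.796), Cx3cr1 (0.789) and Laptm5 (0.785), and Itgb2 to the integrin activator gene Fermt3 (0.787), Itgam (0.761) and Cx3cr1 (0.734). C4b stood apart, closest to Trpm3 (0.665), Oplah (0.654) and Icosl (0.625), and its r with C1qa was -0.164. With the summed markers of cell types, the r of C4b was 0.559 for oligodendrocytes, 0.544 for astrocyte reactivity, 0.460 for meningeal fibroblasts and -0.149 for microglia. C3 was closest to Taf12 (0.651), Ago3 (0.586) and Ankrd54 (0.562), C3ar1 to Alg3 (0.688), Coq10b (0.654) and Sertad1 (0.648), and C5ar1 to Slc8b1 (0.577), Ube2l6 (0.527) and Inpp5d (0.508). For these 3 genes of few reads such values carry counting noise.

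The rest of the complement system was compared between the diets as a list of 46 further genes, of which 18 had a mean of at least 1 TPM. Of these, 1 was called as lower and 0 as higher (limma), and the median log2(TPM + 1) difference of the list was 0.04, against 0.03 over all genes tested. The differences of the other 17, which did not pass the test, lay between -0.07 and 0.21. Among regulators, Clu (clusterin) was the most abundant, at 926 and 968 TPM (difference 0.07 ± 0.04, adjusted p = 0.45, limma), and the membrane inhibitor Cd59a was at 6.77 and 7.95 TPM (0.21 ± 0.08, adjusted p = 0.13). Of the classical and lectin genes 3 of 15 were tested, and C2, the protease that joins C4 in the C3 convertase, was at 2.95 and 2.78 TPM (-0.07 ± 0.14, adjusted p = 0.86). Of the alternative and terminal genes 2 of 10 were tested, Cfp, or properdin, and C8g, and of the other receptors 1 of 5, Cd93. C5ar2, the second receptor for C5a, was under the filter, but on the counts it was lower (mean 17.5 and 1.92 reads, edgeR log2 difference -3.24, adjusted p = 1.58e-13). Fcna, a ficolin of the lectin pathway, had 5.04 and 1.88 reads and was called without the filter (adjusted p = 0.00011, limma) and by DESeq2 (adjusted p = 0.0029), but had too few reads to be tested with edgeR. C5ar2 and Fcna were singled out after their values were seen.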

How the data were processed

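RNA of 47 mouse cortices was sequenced, 1 library per mouse. The authors mapped reads with STAR to GRCm38.p6, obtained TPM from Salmon on Gencode genes (release not given in the sources used here) and deposited TPM per gene. The second table the authors deposited is named for FPKM but holds whole-number counts without normalization. Its tool is not given in the sources used here, and the submitters' processing notes list STAR, featureCounts, edgeR and limma. Groups came from the sample labels. The members and gene lists were chosen with earlier results of these data known.

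The 14580 genes that averaged at least 1 TPM were tested on log2(TPM + 1) with limma 3.58.1 in R 4.3.3. The diet contrast had the cosine and sine of ZT at 24 h as covariates, the interaction was an F test of 2 terms, and slopes on the marker level were fitted within a diet with ZT as a factor. JTK_CYCLE was rewritten with an exact null, 6 phases 4 h apart and Bonferroni correction over phases. P-values were two-sided for slopes and differences and were adjusted by Benjamini-Hochberg over all genes tested, with a threshold of 0.05. The alternatives comprised dropping the filter, raising it to 5 TPM, a pseudocount of 0.1, median-of-ratios scaling, a replicate block, a trended prior, ZT as a factor, no ZT term, 7 markers, the pair of libraries farthest from the median left out, each library left out, and edgeR 4.0.16 and DESeq2 1.42.0 on counts. The limma, edgeR, DESeq2 and JTK_CYCLE steps were also run on simulated data, and the outcome is not reported here. CPM divides counts by their library total.

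Named genes were the members, other complement genes called between the diets, the 3 genes most like each member and the 2 most abundant genes of each marker list, which are given where a result touches them. No 2 libraries of a group agreed within counting error (chi-square of at least 4.30 per degree of freedom in 69 pairs). Replicate numbers were not used to pair mice, since no source ties them to a shared animal, litter, batch or day. Genes withheld from the text, 1 further complement gene called between the diets among them, are not reported here.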

Additional observations from a re-analysis of the deposited data

Results flagged for a closer look

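In 99 groups of 4 mice, 11 for each of the 9 members, 6 held a library far from the other 3 by Dixon's test, which is 6.06%, and chance flags about 1 in 20. C1qc at ZT14 in PLX5622 mice was at 13.1 TPM in replicate 1 and at 3.36 to 4.20 TPM in the others. Itgb2 at ZT2 in PLX5622 mice was at 1.59 TPM in replicate 4 and at 0.207 to 0.300 TPM in the others. The counts did not show this, with 16 reads in replicate 4 and 10 to 13 in the others. The remaining 4 were levels of C3, the member with a mean of 13.04 and 16.8 reads in the diets. C3 reached 1.09 TPM in replicate 1 of control mice at ZT2 (others 0.0864 to 0.198), 0.459 TPM in replicate 3 of control mice at ZT22 (others 0.194 to 0.228), 0.818 TPM in replicate 3 of PLX5622 mice at ZT14 (others 0.181 to 0.289) and 0.679 TPM in replicate 4 of PLX5622 mice at ZT22 (others 0.175 to 0.238). Of these, only the control library at ZT22 was also the highest in reads, at 34 (others 14 to 20). The control library at ZT2 held 5 reads of C3 (others 6 to 15). The PLX5622 libraries held 14 at ZT14 (others 16 to 26) and 14 at ZT22 (others 12 to 21).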

How the results depend on the processing

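Of the 9 members, 5 were lower with PLX5622 by over 1 on the log2 scale, with 5 when any library was left out and 5 to 7 under the other alternatives, apart from 3 with a mean of at least 5 TPM, where Itgam and Itgb2 were not tested. No member was called rhythmic or with an interaction under any alternative. Of 46 further complement genes 1 was called, against 3 without a filter, 2 with edgeR and 3 with DESeq2, and 1 with any library left out. In PLX5622 mice the 3 C1q genes followed the marker level under every alternative. With Itgam and Itgb2, which entered the fit through their level in control mice, 5 members were called. This count was 4 to 5 with a library left out and 3 where a mean of at least 5 TPM tested only 4 members. It was 4 with edgeR, with DESeq2, with a trended prior and without the pair of libraries farthest from the median. In control mice 4 did, against 0 with median-of-ratios scaling, 0 with 7 markers, 0 with edgeR, 2 with DESeq2, 1 without the pair of libraries farthest from the median and 0 to 4 with a library left out, and the cause was not tested. The slope of C4b in control mice turned from -0.72 to 0.32 in 1 alternative, without a ZT term. Over all genes, the diet comparison called 503 genes, against 1243 with edgeR and 1365 with DESeq2. The slope in control mice called 416, against 0 to 934 with a library left out, 0 with median-of-ratios scaling or 7 markers, 91 without the farthest pair, 732 with DESeq2, 1111 with the replicate block and 204 with edgeR (154 lower and 50 higher, against 41 and 375). JTK_CYCLE called 11 and 89 genes in control and PLX5622 mice, against 40 and 160 with median-of-ratios scaling and 0 and 43 without a filter.

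Replicate numbers are shared by the groups, and libraries of the same number deviated together more often than others, though not every pair did. The mean r was 0.0512 over 253 pairs of the same number, with 30.04% over 0.1. It was -0.0171 over 759 pairs of other numbers, with 12.52% over 0.1. Of 47 libraries 24 were closest to their own number out of 4 numbers, and the share expected by chance was not computed. Deviations were taken from the group means, so the mean r of same and of other numbers are not independent. The likeness of same-numbered libraries is a hint from the data and not from the design, and a batch behind it was not tested. With the replicate block, 5 members followed the marker level in PLX5622 mice and 5 in control mice, and it changed no count of called members by over 1.5 times. Depth limits C3, C3ar1 and C5ar1, with means of 2.04 to 39.5 reads, and Itgam and Itgb2 in PLX5622 mice.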
